A study of Mus musculus with 4 samples.

Results

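Leukocyte marker genes were examined in cells labelled as endothelium of tumour-draining collecting lymphatic vessels of the mouse. The set held 38 genes, fixed by name: 13 of macrophages, 3 shared by most leukocytes, 10 of lymphocytes, 7 of neutrophils and 5 of mast cells. A gene was measured where a probe set of the Affymetrix array was annotated with that gene alone, and the probe set with the highest mean signal stood for the gene. This covered 37 of the 38 genes, out of 18193 genes named on the array in this way. The neutrophil gene Ly6g was named by no such probe set and has no value here.

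There were 2 groups of 2 arrays. The control mice carried a flank tumour of 293EBNA cells, a line derived from human embryonic kidney, with the empty Apex vector. The other mice carried a tumour of the same cells with Apex-VEGFD, which encodes the lymphatic growth factor VEGF-D. In both groups, per the labels' protocols, tumours had grown to 2000 mm3, vessels were found by Patent Blue V injected into the tumour, and cells were taken by magnetic sorting. The extraction protocol names endothelial cells of lymph node where the titles name collecting vessels, so the source is given here by the titles and is not settled. The sources used here do not give the marker used in the sort, the mouse strain, its immune status, the age of the mice or the number of mice behind an array. The titles call the arrays biological replicates, and p-values measure the spread between these arrays. Precision is limited by the number of arrays. Signals below are linear intensities, listed with both Apex arrays first, by replicate number, and then both VEGFD arrays in the same way.

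The endothelial label was checked against its markers before the leukocyte genes were read. Pecam1, which encodes the endothelial adhesion molecule CD31, had signals of 2.92, 141, 3.25 and 2.22, and the mucin gene Emcn had 48.4, 2670, 106 and 24.0. Both were highest by far in Apex replicate 2. So were Cdh5, at 13.0, 146, 4.23 and 3.11, and Erg, at 1.07, 68.3, 1.23 and 1.48, on their brightest probe sets. Some endothelial genes were not confined to Apex replicate 2. Kdr had 78.8, 75.75, 90.8 and 55.4, and Flt4 had 42.6, 246.5, 161 and 145 on its brightest probe set. Of 16 pan-endothelial genes, 4 reached the median probe set on all 4 arrays, and 12 were highest in Apex replicate 2. Prox1, the transcription factor gene that sets lymphatic identity, had 3 probe sets, none of which exceeded 14.6. Pdpn, the podoplanin gene of lymphatic endothelium and of fibroblasts, was bright everywhere, at 963, 1622, 1237 and 1715. The endothelial label is therefore kept below as a label of the samples, and results that rest on Apex replicate 2 are also given without that array.

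Leukocytes patrol tissue drained by lymphatics and enter the collecting vessels on their way to the lymph node, and macrophages also live in the vessel wall. Macrophages depend on the receptor encoded by Csf1r, carry complement C1q and scavenger receptors, and signal through the adaptor encoded by Tyrobp. T cells carry the CD3 chains, B cells the CD79 pair of the B cell receptor, neutrophils the calprotectin pair S100a8 and S100a9, and mast cells granule proteases. Ptprc encodes CD45, the surface phosphatase of nearly all leukocytes.

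Most leukocyte markers were dim. The median probe set, leaving out controls, had a signal between 23.8 and 30.4 depending on the array, and each gene was set against the median of its own array. Of the 37 measured markers, 9 were at or above the array median on all 4 arrays and 19 were below it on all 4. Of all 18193 named genes, 55.6% were at or above the array median on all 4 arrays, against 24.3% of the markers. The middle marker of the 37 had 0.417, 0.673, 0.436 and 0.485 times the array median, and the middle gene of all named genes 2.37, 2.19, 2.30 and 2.35 times. Probe sets differ in how strongly they bind their target, so the order of signals between genes is no order of RNA amounts. Without detection calls the signal at which a gene counts as absent is unknown here. In bulk RNA, fewer cells of a type and less RNA per cell cannot be told apart.

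**Figure D1:**
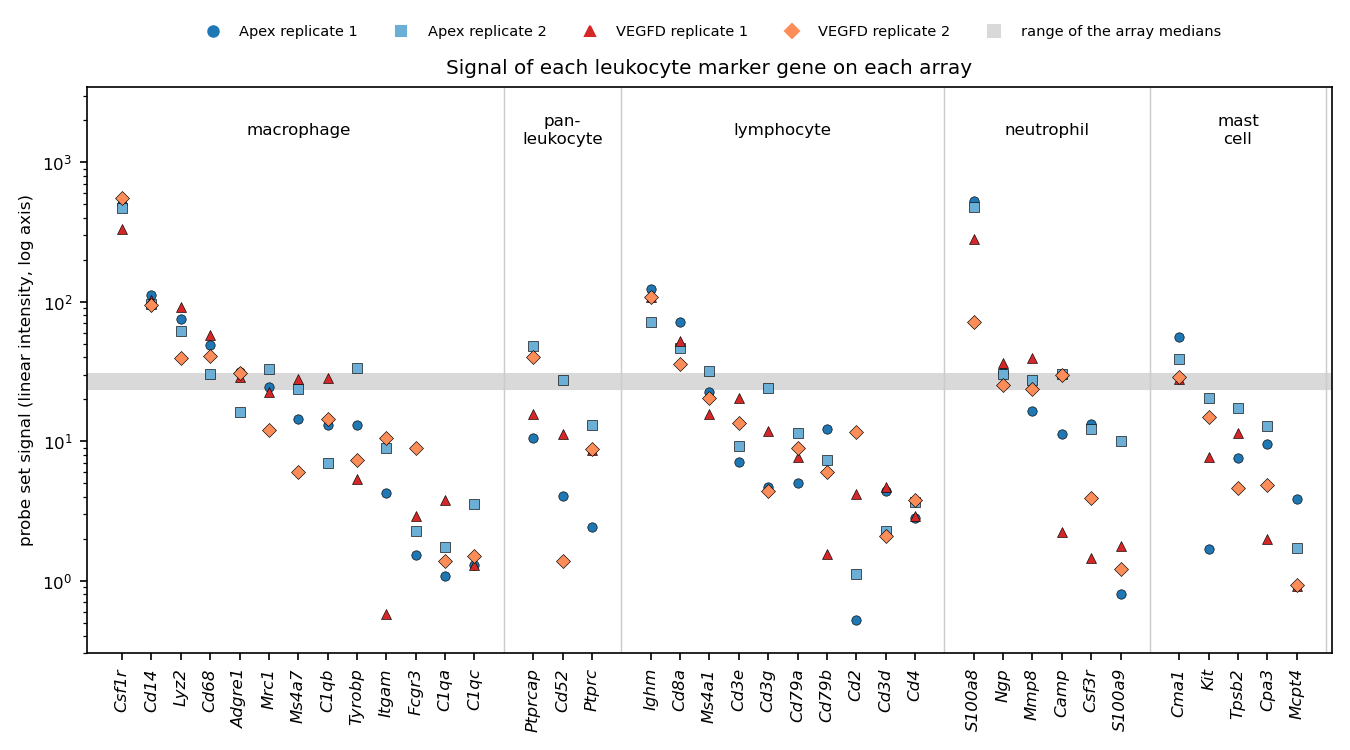
Signal (linear intensity on a log axis) of each of the 37 measured leukocyte markers, 1 column per gene and 1 point per array, by cell class; the grey band spans the array medians, 23.8 to 30.4. Csf1r and S100a8 stand far above the band, and 19 genes have all 4 points below the median of their own array.

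Among macrophage markers, 4 of 13 were at or above the array median on all 4 arrays and 4 were below it on all 4. Csf1r, the gene of the receptor for colony stimulating factor 1, was the brightest, with signals of 503, 472, 335 and 558, or 12.7 to 23.4 times the array median. It was the 1 marker of the 37 at or above the 75th percentile on all 4 arrays, as were 31.8% of all named genes. Cd14, which encodes a co-receptor for bacterial lipopolysaccharide, had 112, 96.1, 103 and 95.0. These were the most even values of the class, with a highest array 1.18 times the lowest. Lyz2, the lysozyme gene of phagocytes, had 75.3, 61.4, 91.9 and 39.8, with the lowest value in VEGFD replicate 2.

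Cd68, which encodes a lysosomal glycoprotein of macrophages, had signals of 49.4, 30.6, 58.0 and 41.2. Adgre1, which encodes the surface protein F4/80, had 31.5, 16.1, 29.1 and 30.7. Its signal in Apex replicate 2 was 0.53 times the array median, and the other 3 arrays lay between 1.11 and 1.29 times. For both genes Apex replicate 2 was the lowest array, and the groups overlapped.

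Other genes that define macrophages were dimmer. C1qa and C1qc, which encode 2 of the 3 chains of complement C1q, had signals between 1.08 and 3.80 and lay below the 25th percentile of probe sets on every array. C1qb, the gene of the third chain, had 13.0, 7.03, 28.5 and 14.4 on its brightest probe set. That probe set carries the suffix x_at, given where probes may bind other transcripts. Another probe set had 6.90, 19.9, 16.6 and 9.34, and the last had 1.12, 3.41, 24.4 and 1.45. Neither of these reached the array median on any array. In the reference annotation C1qb, C1qc and C1qa follow each other with no protein-coding gene between them. Fcgr3, which encodes an activating receptor for immunoglobulin G, had 1.53, 2.27, 2.89 and 8.98. Itgam, which encodes the integrin chain CD11b, had 4.24, 9.01, 0.575 and 10.6. All values of these last 2 genes were below the array median.

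The remaining 3 macrophage markers each passed the array median on a single array. Tyrobp, which encodes the adaptor DAP12, had signals of 13.0, 33.3, 5.40 and 7.33. Mrc1, the mannose receptor gene that lymphatic endothelium also expresses, had 24.6, 32.9, 22.4 and 11.9. Apex replicate 2 was the highest array for both, as for Pecam1 and Emcn. Ms4a7, a gene of a membrane-spanning protein of macrophages, had 14.5, 23.5, 28.0 and 6.04, with the highest value in VEGFD replicate 1. These signals were at most 1.09 times the array median.

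The pan-leukocyte markers were low as well. Ptprc had signals of 2.41, 13.0, 8.62 and 8.85, at most 0.428 times the array median, and its second probe set had 2.15, 4.68, 3.44 and 12.1. Cd52, which encodes a small surface glycoprotein of lymphocytes and other leukocytes, had 4.03, 27.3, 11.2 and 1.39. Ptprcap, which encodes a protein bound to CD45 in lymphocytes, had 10.5, 48.4, 15.7 and 40.2 and passed the array median on replicate 2 of each group. On the probe sets that stand for these 3 genes Apex replicate 2 was the highest array. The second Ptprc probe set was highest in VEGFD replicate 2.

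Of the 10 lymphocyte markers, 7 were below the array median on all 4 arrays. The CD3 chain genes Cd3e, Cd3d and Cd3g had signals between 2.09 and 24.0. Cd4, the co-receptor gene of helper T cells, had 2.83, 3.66, 2.89 and 3.79, all below the 25th percentile of probe sets. Cd2, an adhesion receptor gene of T and natural killer cells, had 0.522, 1.12, 4.16 and 11.6. Of the B cell genes, Cd79a had 4.98, 11.4, 7.66 and 8.99 and Cd79b had 12.3, 7.33, 1.55 and 6.03. Ms4a1, which encodes the B cell surface protein CD20, had 22.4, 31.9, 15.7 and 20.6 and passed the array median in Apex replicate 2 alone.

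Cd8a and Ighm were at or above the array median on every array, but through a single probe set each. Cd8a, the co-receptor gene of cytotoxic T cells, had 71.3, 46.5, 52.0 and 35.9 on its brightest probe set. Its other 4 probe sets ran from 0.612 to 26.9 and never reached the array median. Ighm, the heavy chain gene of immunoglobulin M, had 124, 71.1, 109 and 108 on its brightest probe set, while its other 10 ran from 0.884 to 47.6. Both bright probe sets carry the suffix x_at, which Affymetrix gave to probe sets whose probes may bind other transcripts.

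Csf1r differed from them in that all 3 of its probe sets were above the array median on all 4 arrays. The second had signals of 131, 198, 112 and 140, and the third had 96.1, 124, 115 and 88.2. The second carries the suffix s_at, given to probe sets whose probes match several transcripts. The 3 probe sets did not rank the arrays alike. VEGFD replicate 2 was the highest array on the brightest of them and the lowest on the third.

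**Figure D2:**
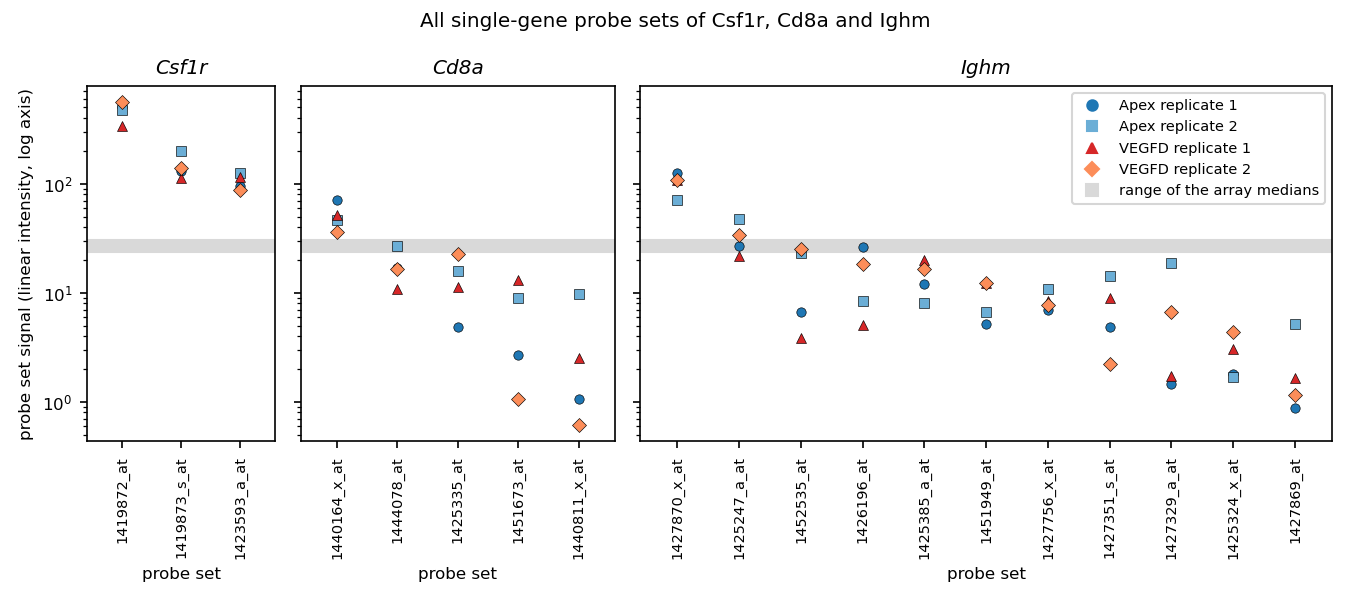
Signal (linear intensity on a log axis) on each array for every probe set annotated with Csf1r, Cd8a or Ighm alone; the grey band spans the array medians. All 3 Csf1r probe sets lie above the band, while the other 4 Cd8a probe sets stay below the median of each array.

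The neutrophil markers differed widely. S100a8, the gene of a calcium-binding protein that makes up calprotectin with the product of S100a9, had signals of 530, 477, 283 and 71.4. It stood at 3.00 to 19.6 times the array median, with both VEGFD arrays below both Apex arrays. S100a9, its neighbour in the reference annotation, had 0.805, 10.1, 1.76 and 1.22, which was 0.0299 to 0.331 times the array median. Csf3r, the receptor gene for the neutrophil growth factor G-CSF, had 13.3, 12.2, 1.45 and 3.89. S100a8 was thus bright while its partner gene and the neutrophil receptor gene were dim on all 4 arrays. Its probe set carries the suffix s_at, given to probe sets whose probes match several transcripts.

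Of the genes of neutrophil granules, Ngp was at or above the array median on all 4 arrays. It encodes neutrophilic granule protein and had signals of 31.4, 30.6, 36.7 and 25.1, at most 1.40 times the median. Mmp8, the neutrophil collagenase gene, had 16.4, 27.6, 39.4 and 23.8, and the antimicrobial peptide gene Camp had 11.2, 30.3, 2.25 and 29.7. Camp ranged from 0.0855 to 1.25 times the array median and was not ordered by group.

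Mast cell markers were below the array median on all 4 arrays for 4 of 5 genes. Cma1, the chymase gene, was the exception, with signals of 56.3, 39.2, 28.0 and 29.0 and both VEGFD arrays below both Apex arrays. Mcpt4, another mast cell chymase gene, had 3.85, 1.72, 0.907 and 0.933, all below the 25th percentile of probe sets. Cpa3, the carboxypeptidase gene, had 9.60, 12.8, 1.97 and 4.84, and the tryptase gene Tpsb2 had 7.62, 17.3, 11.4 and 4.64. Kit, the stem cell factor receptor gene that mast cells need, had 1.69, 20.5, 7.74 and 14.9. Kit in Apex replicate 2 came closest to the array median among these 4 genes, at 0.673 times.

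Summed over each class, the signal of macrophage markers was 844, 789, 709 and 827, and that of lymphocyte markers 254, 209, 230 and 215. The neutrophil sum was 603, 588, 365 and 155, of which S100a8 made up the larger part except in VEGFD replicate 2. The mast cell sum was 79.1, 91.4, 50.0 and 54.4. Macrophage and lymphocyte sums thus overlapped between the groups, and neutrophil and mast cell sums were lower on both VEGFD arrays through 1 gene each. Without S100a8 the neutrophil sum was 73.1, 111, 81.5 and 83.7, and without Cma1 the mast cell sum was 22.8, 52.2, 22.1 and 25.4, and the groups overlapped. Bright genes dominate such sums. Csf3r, Cpa3 and Mcpt4, all below the array median on all 4 arrays, were also lower on both VEGFD arrays. The other genes of the neutrophil and mast cell classes overlapped between the groups. Of the 11677 genes tested below, 21.8% were lower without overlap, but Csf3r, Cpa3 and Mcpt4 were too dim to be tested. Dim markers of the other classes went both ways on the probe sets that stand for them. C1qb, Fcgr3, Cd3e and Cd2 were higher on both VEGFD arrays, and Mrc1, Tyrobp, Cd79b and Ms4a1 were lower. No change is read from these dim genes. The pan-leukocyte sum was 16.9, 88.8, 35.5 and 50.4 and overlapped.

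Apex replicate 2, the array with the highest endothelial signals, was the highest array for 14 of the 37 leukocyte markers, or 37.8%. Over all named genes the share was 33.4%. It was 12 of 16 for pan-endothelial markers, whose summed signals were 809, 4544, 1289 and 543. The share of the 37 markers lay near that of all genes. Of 65 further leukocyte genes, described next, 30 (46.2%) were highest on Apex replicate 2. By list the share was 51.7% for macrophages and dendritic cells, 31.6% for lymphocytes and 52.9% for granulocytes and mast cells.

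A broader list of leukocyte genes was mostly dim too. Of 75 further genes of macrophages, dendritic cells, lymphocytes, granulocytes and mast cells, 65 were measured, and 7 of them (10.8%) were at or above the array median on all 4 arrays. The split was 6 of 29 for macrophages and dendritic cells, 0 of 19 for lymphocytes, and 1 of 17 for granulocytes and mast cells. Cd53, which encodes a tetraspanin of leukocytes, was the brightest, at 521, 621, 113 and 309. Its other probe set had 14.3, 22.1, 2.89 and 16.6. Fcgr2b, the inhibitory receptor gene for immunoglobulin G, had 163, 191, 169 and 116 on its brightest probe set and at most 22.8 on its other 4. Gata2, a transcription factor gene of mast cells and of endothelium, had 164, 215, 142 and 184 on its brightest probe set. Its other probe set had 45.3, 58.55, 65.85 and 87.8, with both VEGFD arrays above both Apex arrays.

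Genes of tissues that were not dissected gave a reading for comparison. A list of 24 genes of liver, pancreas, retina, testis, brain, kidney and lung, chosen after the leukocyte values were seen, had 21 measured genes with signals from 0.741 to 103. Of these 21, 1 was at or above the array median on all 4 arrays and 15 on none. That gene was Cela1, the pancreatic elastase gene, at 95.0, 103, 68.2 and 47.2. Gfap, an astrocyte filament gene, had 39.4, 24.1, 30.4 and 31.4. The middle gene had 0.407, 0.477, 0.508 and 0.422 times the array median. Markers such as Cd68, Adgre1, Ngp, Mmp8 and Cma1, with signals between 16.1 and 58.0, lay within the range of these genes, and Csf1r lay above it. Cela1 alone set the top of that range on every array. On VEGFD replicate 1 the next highest gene was Ins2 at 41.4, below Cd68 at 58.0. The list was chosen after the leukocyte values were seen, so lying within its range is no test. The highest signal among these genes was 95.0, 103, 68.2 and 47.2 by array, and S100a8 lay above it on all 4. Cd14 and the brightest probe set of Ighm lay above it on every array but Apex replicate 2.

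Markers of fibroblasts were mostly bright. Of 14 fibroblast markers, 12 were at or above the array median on all 4 arrays, and the collagen I gene Col1a2 had signals of 5555, 6846, 6122 and 6623. S100a4, a calcium-binding protein gene of fibroblasts and also of leukocytes, had 6987, 11340, 6943 and 6517, and the fibulin gene Fbln2 had 6403, 7107, 8334 and 7068. Of 11 lymphatic endothelial markers 6, of 16 pan-endothelial markers 4, and of 7 red cell and platelet markers 2 were at or above the median on all 4 arrays. Thy1, listed here as lymphatic and also a T cell and fibroblast gene, had 1412, 1092, 1067 and 2119, and the endothelial gene Eng had 417, 765, 829 and 271. The red cell and platelet list was led by Itga2b, the platelet integrin gene, at 124, 139, 121 and 94.4, and Gp1bb, a platelet receptor gene, at 56.0, 38.2, 36.7 and 31.7.

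**Figure D3:**
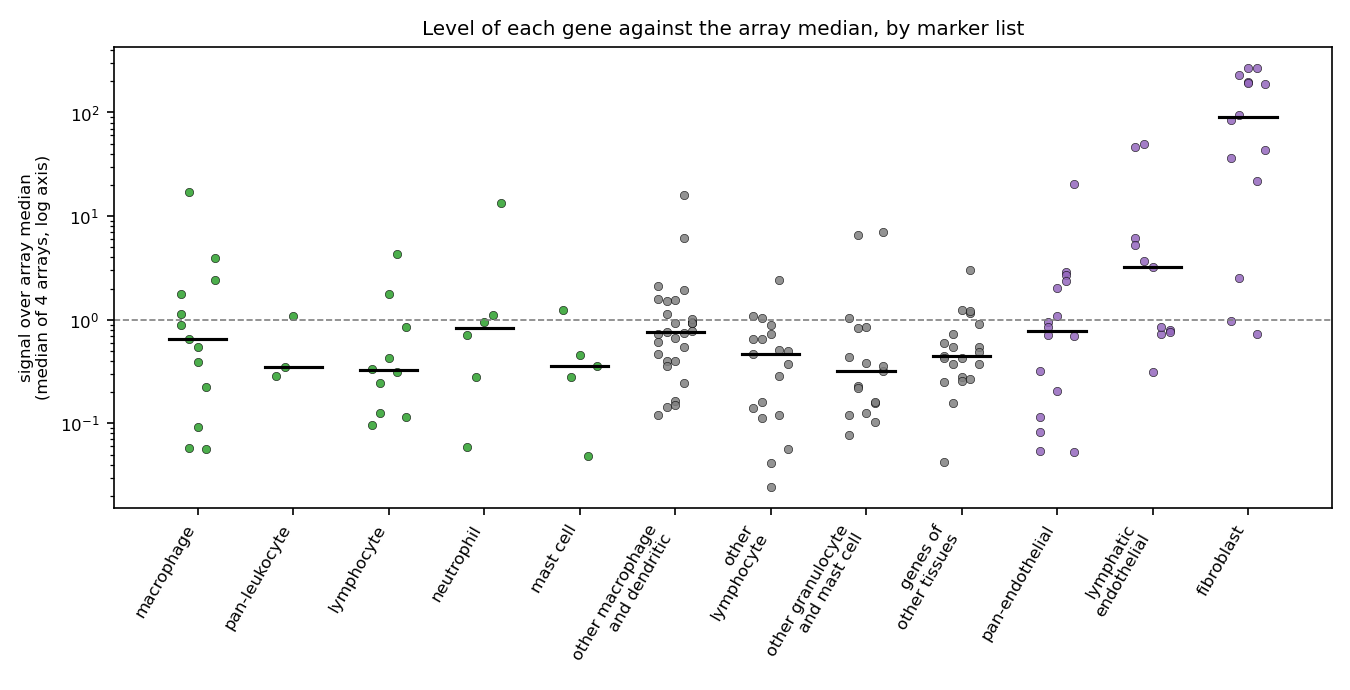
Signal of each gene over the median of its array (median of the 4 arrays, log axis), by marker list, with 1 point per gene and a black line at the middle gene; the dashed line is the array median. Leukocyte lists (green, with further leukocyte genes in grey) lie mostly below the dashed line, as do genes of tissues that were not dissected, and 12 of 14 fibroblast genes were above it on all 4 arrays.

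The groups were then compared, to ask whether leukocyte markers differed when the tumour made VEGF-D. No leukocyte marker was called higher or lower. The comparison used limma on log2(signal + 16), so changes of dim genes are understated, and covered 11677 genes whose mean reached the median probe set, a signal of 25.3. Of the 37 measured markers 12 reached it, 5 of macrophages, 1 pan-leukocyte, 2 of lymphocytes, 3 of neutrophils and 1 of mast cells, and the other 25 were not tested. Since the filter used the mean over all arrays, the 12 do not stand for all members. Of the 12, 5 were higher and 7 lower in VEGFD arrays, with a median log2 change of -0.038 against -0.035 over all 11677 genes.

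At an adjusted p of 0.05 the fit called 0 of the 12 markers and 0% of the 11677 genes, with a smallest adjusted p among the markers of 0.823. At an unadjusted p of 0.05 it took 1 marker, S100a8, and 5.7% of all genes (666). With 3 ways to split 4 arrays into pairs, the smallest p of an exact permutation test is 0.333. The groups did not overlap in 2 of the 12 markers, S100a8 and Cma1, against 38.5% of all tested genes. Both were lower in VEGFD arrays, as were 21.8% of all tested genes without overlap, and 0 of the 12 were higher without overlap, against 16.6%.

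S100a8 had the largest difference of the tested markers. Its mean on the log2 scale was 9.02 ± 0.10 (SD, n = 2) in Apex and 7.34 ± 1.26 (SD, n = 2) in VEGFD arrays, a change of -1.68 ± 0.59 (SE) with a limma adjusted p of 0.823. It was at least 2-fold apart without overlap, as were 2.79% of all tested genes in that direction. The size rested on VEGFD replicate 2. Without that array the change was -0.79, and without VEGFD replicate 1 it was -2.57, where S100a8 passed in limma (adjusted p = 0.0103) as 1 of 372 genes called. That fit holds no variation between VEGFD arrays, and the lone array is assumed to vary like the others.

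Lcn2 and, from a list of 15 epithelial and keratinocyte genes, Dsp, Perp and Cdh1 were also lowest on VEGFD replicate 2. All other genes of that list were lowest on another array. The share of all genes lowest on VEGFD replicate 2 was not counted. That list was mixed. On the same array 4 of its 15 genes (26.7%), among them Krt10, had their highest signal, as did 25.7% of all named genes. S100a8 is also made by stressed keratinocytes, as is Lcn2, the gene of lipocalin 2, which neutrophils carry in granules. Lcn2 had signals of 158, 425, 212 and 12.5, lowest in VEGFD replicate 2. The log2 change was -1.78 ± 1.03 (SE), with a limma adjusted p of 0.825. Without VEGFD replicate 1 its change was -3.28 (limma adjusted p = 0.0285), and -0.28 without VEGFD replicate 2. Of 15 epithelial and keratinocyte markers, a list chosen after values were seen, 9 were tested, 1 was higher and 8 were lower, with 0 called. Over all 11677 tested genes 5417 were higher and 6260 lower. The groups did not overlap in 3 of the 9, against 38.5% of all tested genes.

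The summed epithelial signal was 850 and 1164 in Apex and 767 and 417 in VEGFD arrays. Dsp, which encodes the desmosome protein desmoplakin, had 169, 212, 56.8 and 10.03, and Perp, another desmosome gene, had 304, 470, 410 and 80.9. Without these 2 genes the sum of the other 13 was 377 and 483 in Apex and 300 and 326 in VEGFD arrays, with VEGFD replicate 1 the lowest. Of the whole list 4 genes were at or above the array median on all 4 arrays, among them the keratin genes Krt10, at 56.0, 69.0, 52.6 and 69.5, and Krt6a, at 34.1, 60.9, 32.2 and 53.1. The list had 6 genes below the median on all 4 arrays, and of these Krt1, Krt15 and Sfn were below the 25th percentile on all 4. The part of these genes' cells in the S100a8 values was not tested.

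Cma1 had a log2 change of -0.51 ± 0.29 (SE), with means of 5.98 ± 0.28 (SD, n = 2) in Apex and 5.47 ± 0.02 (SD, n = 2) in VEGFD arrays and a limma adjusted p of 0.825. Its change ran from -0.70 to -0.31 when each array was left out in turn. Cd8a had -0.32 ± 0.32 (SE), with 2 of its other 4 probe sets changing the other way, and Mmp8 had 0.32 ± 0.34 (SE). Leaving out each array in turn moved Cd8a between -0.56 and -0.074 and Mmp8 between 0.082 and 0.56.

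The 5 tested macrophage markers had changes smaller than their SE. The log2 change was 0.24 ± 0.32 (SE) for Cd68, 0.23 ± 0.32 for Adgre1 and -0.16 ± 0.31 for Csf1r. It was -0.12 ± 0.39 for Lyz2 and -0.064 ± 0.25 for Cd14. All 3 Csf1r probe sets had a negative change, of -0.16, -0.32 and -0.10. Without Apex replicate 2, Cd68 was at -0.0081 and Adgre1 at -0.049, and Csf1r was at 0.19 without VEGFD replicate 1. No direction can therefore be given for these genes.

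The remaining tested markers had changes of 0.18 ± 0.32 (SE) for Ighm, 0.031 ± 0.54 for Ptprcap and -0.013 ± 0.29 for Ngp. Ptprcap had an SD of 0.91 between the Apex arrays, and its change went from -0.61 without Apex replicate 1 to 0.67 without Apex replicate 2. For Ighm 3 of the other 10 probe sets had the sign of the brightest and 7 the opposite sign.

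**Figure D4:**
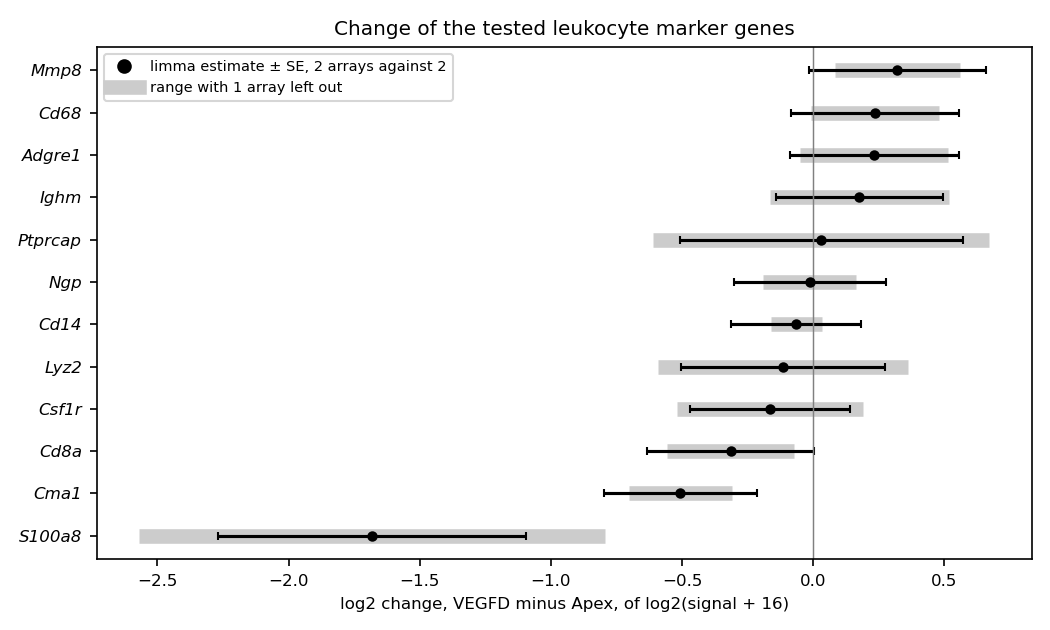
Change of log2(signal + 16), VEGFD minus Apex, for the 12 tested leukocyte markers: points are limma estimates, bars their SE (2 arrays against 2), and grey bars the range with 1 array left out. S100a8 lies at -1.68 with a range from -2.57 to -0.79, and the grey bars of 8 other genes cross 0.

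Of the 65 further leukocyte genes measured, 14 were tested, 3 were higher and 11 lower, and 0 were called, with a median log2 change of -0.25. The groups did not overlap in 8 of the 14, against 38.5% of all tested genes. Cd53 had -1.52 ± 0.47 (SE) with both VEGFD arrays below both Apex arrays, and was at -0.85 without VEGFD replicate 1 and -2.18 without VEGFD replicate 2. Vav1, a signalling gene of blood cells, had a change of -0.58 ± 0.29, from signals of 78.6, 60.8, 48.9 and 33.8. Its other probe set was at most 6.40.

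Of the further lymphocyte genes, Zap70, the gene of the kinase that acts downstream of the T cell receptor, had signals of 35.7, 25.2, 186 and 84.2, with both VEGFD arrays above both Apex arrays. The log2 change was 1.62 ± 0.41 (SE). Its limma adjusted p was 0.823, and its other 2 probe sets had at most 20.8 on any array and changes of 0.024 and -0.073. Blk, a kinase gene of B cells, had 31.0, 61.3, 19.4 and 24.4 and a change of -0.67 ± 0.35, or -0.31 without Apex replicate 2. Among the 14 tested genes of this broader list, Zap70 alone was at least 2-fold higher without overlap, as were 1.09% of all tested genes. Genes of the list below the filter were not counted. The CD3 chain genes stayed below the array median.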

How the data were processed

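The deposited values were linear intensity, 1 signal for each of 45101 probe sets (64 of them controls) on each of 4 arrays. The sources used here do not give the authors' algorithm. All deposited columns had a mean of 150 after trimming 2% at each end. Of the probe sets, 34945 had 1 gene symbol in the platform annotation, 932 had several and named no gene, and 9160 were unnamed here; the GRCm38.p6 gene table held the gene ID of 34741 of the first. Levels were read as signal over the array median without controls. The group comparison ran in R 4.3.3 with the lmFit and trended eBayes functions of limma 3.58.1, two-sided with Benjamini-Hochberg adjustment over 11677 genes, and the procedure was tested on simulated data. Members and lists were chosen with earlier results of these data known, and the epithelial and other-tissue lists were added after values were seen. Members above the filter, or above the array median on at least 1 array, were named with their signals; signals of the other members were chosen for print after they were seen. From each further leukocyte list came the 2 genes with the largest change and the 2 brightest, and from reference lists the 2 brightest with Pecam1, Emcn, Prox1, Pdpn and Col1a2. Other genes of the reference lists, among them Cdh5, Erg, Kdr and Flt4, were named outside this rule. Alternatives covered scaling, pseudocount, filter, averaged probe sets, the replicate block and each array left out, with the filter kept as for 4 arrays.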

Additional observations from a re-analysis of the deposited data

How the results depend on the processing

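No leukocyte marker was called under any of the 12 alternatives but 1: without VEGFD replicate 1 S100a8 was called, so with 1 array left out the count of markers ran from 0 to 1. Over all genes the count was 6 with the replicate number as a block and 0 to 372 with 1 array left out. The same-numbered arrays' deviations had a correlation of 0.20 across genes, and the labels do not say that the numbers pair arrays. With the replicate block S100a8 had an adjusted p of 0.36 in limma and 0 markers were called. The 9 markers at or above the array median on every array became 1 at the 75th percentile, 14 at the 25th and 7 with averaged probe sets, and ran from 9 to 10 with 1 array left out. Of 131 alternative values of the 12 tested markers, 16 changed sign, in 8 markers. With each array left out in turn, Cd68 ran from -0.0081 to 0.48, Adgre1 from -0.049 to 0.51, Csf1r from -0.52 to 0.19, Lyz2 from -0.59 to 0.36, Cd14 from -0.16 to 0.034, Ptprcap from -0.61 to 0.67, Ighm from -0.16 to 0.52 and Ngp from -0.19 to 0.16. With arrays centred on their medians Lyz2 was 0.0077, Cd14 0.059 and Ngp 0.11, with quantile normalization Ngp was 0.11, and with a pseudocount of 64 Ptprcap was -0.0060. The causes were not tested. Among the tested markers S100a8, Cma1, Cd8a and Mmp8 kept their sign under every alternative that gave them a value. Signal over background limits the 25 dim markers, for which no change can be read.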
